A study of Mus musculus with 8 samples.

Results

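The genes described here are those whose transcripts were lower after IFNγ in control MC38 cells. A gene was taken when it had a name, a mean of at least 100 normalised reads over the 8 samples, a log2 ratio of IFNγ over untreated of -0.8 or below in control cells, and both IFNγ values below both untreated values. 60 genes met this rule among 10322 genes that were named and passed the mean of 100, which is 0.581%, and 20432 genes were listed in both deposited tables. The mirrored rule, a log2 ratio of 0.8 or above with no overlap, was met by 305 genes.

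The samples were of MC38, a line from a mouse adenocarcinoma of the colon, and RNA-seq gave 4 groups with 2 samples each. Control cells, labelled wild type, and DENR knockout (KO) cells, made with Cas9 and lentiviral guide RNAs against the translation reinitiation factor DENR, were each left untreated or given 20 ng/ml IFNγ for 4 h. The paper lists a control guide RNA, and in its killing assay control MC38 cells also received Cas9 and a guide RNA by lentivirus. Whether the control cells sequenced here did was not stated. The study calls the 2 samples of a group independent. Each p-value rests on the spread between such samples, with the spread of each gene moderated by that of the other genes tested. Whether the KO samples share a guide RNA was not given in the sources used here. Reads on genes numbered between 17369020 and 18403790 per sample. In bulk samples such as these, less transcript per cell and fewer cells carrying it cannot be told apart.

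IFNγ binds its receptor on the cell surface and activates the receptor's kinases JAK1 and JAK2, and many of its target genes carry GAS elements (gamma-activated sites) in their promoters. The genes it raises, such as those for antigen presentation and chemokines, are the better known arm of the response. A second arm, in which transcripts fall, has been described in macrophages among other cells. The level of a transcript can fall no faster than the transcript decays.

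The labels were checked first. Denr itself, in the values as deposited, was at 1448 and 1297 in untreated control cells and at 1438 and 1401 in control cells with IFNγ. It was at 943 and 916 in untreated KO cells and at 946 and 957 in KO cells with IFNγ, below every control sample, and the transcript was still present in KO cells. Cd274, which encodes PD-L1, had group means of 46.6 and 2149 normalised reads in control cells without and with IFNγ, and of 34.9 and 1211 in KO cells. Irf1, an early target of IFNγ, had means of 1407 and 17099 in control cells and of 1468 and 11954 in KO cells. Cxcl10, a chemokine gene, had means of 222 and 40975 in control cells and of 217 and 17549 in KO cells. Of 10 epithelial markers, 5 were in both tables, their summed level was 12.7 to 27.5 normalised reads in every sample, and Cdh1 and Krt8 reached no more than 20.6 and 8.16, so the defining markers of an epithelial line were near 0. Of 8 fibroblast markers, 6 were in both tables, with a summed level of 22917 and 23922 in untreated control cells, 20795 and 20824 in control cells with IFNγ, 21700 and 22298 in untreated KO cells, and 18983 and 19732 in KO cells with IFNγ. That sum, in which Col1a2 had the most reads, was thus lower with IFNγ in both genotypes, but Dcn, another of the 6, had log2 changes of 0.52 in control and 0.36 in KO cells. Pdgfrb, one of the 60 genes, is on that list, and the part of cell state in the results was not tested. Of 8 macrophage and dendritic cell markers, 3 were in both tables and summed to at most 86.5 normalised reads in any sample. Of 7 T and NK cell markers, 2 were in both tables and summed to at most 13.7. Of 5 endothelial markers, 3 were in both tables and summed to at most 31.2.

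The promoters of some of these genes are shown because the GAS element is known from genes that IFNγ raises and the TATA box is a core promoter element. RefSeq promoters (GRCm38.p6, 250 bases before to 50 after the annotated start) were found for 40 of the 60 genes. As this is under 80% of the set, a comparison of its motif shares with those of other sets is void, and the counts are a description. GAS (TTCNNNGAA, either strand) was in 3 of the 40 promoters and in 8.47% of all 27025 promoters in the table. The 3 windows, with the GAS letters in capitals, are from the genes of the neurotrophin Bdnf, the clock output factor Dbp and the MADS-box factor Mef2c. Each is written 5′ to 3′ along the strand of the gene.
Bdnf (chr2:109674568-109674597, plus strand, motif from -122): gcacgaacttTTCTAAGAAgtttccttttt
Dbp (chr7:45705138-45705167, plus strand, motif from -99): atttttttttTTCCGCGAAagaagtttgct
Mef2c (chr13:83503867-83503896, plus strand, motif from -157): tccaagattaTTCTTGGAAatgtaatttta

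TATAAA, on either strand, was in 8 of the 40 promoters and in 14.2% of all promoters. In 6 of the 8 genes it lay on the sense strand from -33 to -25, where a TATA box usually stands. These genes encode the cholesterol exporter Abca1, the Wnt antagonist Dkk2, the KIT ligand Kitl, the cofactor Lbh, the myeloid surface receptor Cd300lb and the noncoding locus 2610035D17Rik, and the TATA letters are in capitals.
Abca1 (chr4:53159907-53159936, minus strand, motif from -29): cacagccgaatcTATAAAaggaactagtcg
Dkk2 (chr3:132085248-132085277, plus strand, motif from -32): actgaggaaagcTATAAAaagctaagaggg
Kitl (chr10:100015784-100015813, plus strand, motif from -25): gggagggagctgTATAAAaagcgctggcgg
Lbh (chr17:72918264-72918293, plus strand, motif from -29): ccgcccctccctTATAAAtgctgcttcccg
Cd300lb (chr11:114934384-114934413, minus strand, motif from -30): aaacacccacgcTATAAAaggaagcttatg
2610035D17Rik (chr11:113201854-113201883, minus strand, motif from -33): caaacccgtctcTATAAAaaaggctggaat

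The ISRE core, GAAA followed by any 2 bases and GAAA, was in 0 of the 40 promoters and in 3.49% of all promoters. AP-1 (TGANTCA) was in 5, namely those of F2r, Fam110c, Galnt15, Il16 and Serpinb8, against 7.93% of all promoters. The E-box CACGTG was in 5 as well, against 7.24%, the GC box GGGCGG in 28, against 35.9%, and the CRE core TGACG in 8, against 21.0%. All motifs were searched on both strands, and the E-box of Irs1 overlaps its CRE core. For scale, the 7953 measured genes with a promoter held GAS in 6.56%, the ISRE core in 2.99%, TATAAA in 6.20%, the GC box in 68.8%, AP-1 in 4.63%, the E-box in 11.0% and the CRE core in 34.3% of cases, and the 218 raised genes with one held GAS in 17.4% and the ISRE core in 21.6%.

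In control cells the 60 genes had a median log2 change of -0.91 with IFNγ, and each gene was left with 15.7% to 60.5% of its untreated level. These values chose the genes and are given as a description. They are on a common scale, in which the recovered reads of all 8 samples were divided by size factors computed over the 8 together, because the authors normalised the untreated and the IFNγ tables separately. On the common scale the control IFNγ values stood 0.08 higher on the log2 scale, relative to the untreated ones, than as deposited, so the falls were smaller, 46 of the 60 genes also met the -0.8 threshold there, and the 2 groups of control samples still did not overlap for any of the 60. The untreated control level was between 126 and 5536 normalised reads, under 200 for 17 genes and over 1000 for 14. Over the untreated samples of both genotypes, as deposited, the median level was 397, against 793 for all measured genes and 304 for those raised.

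**Figure D1:**
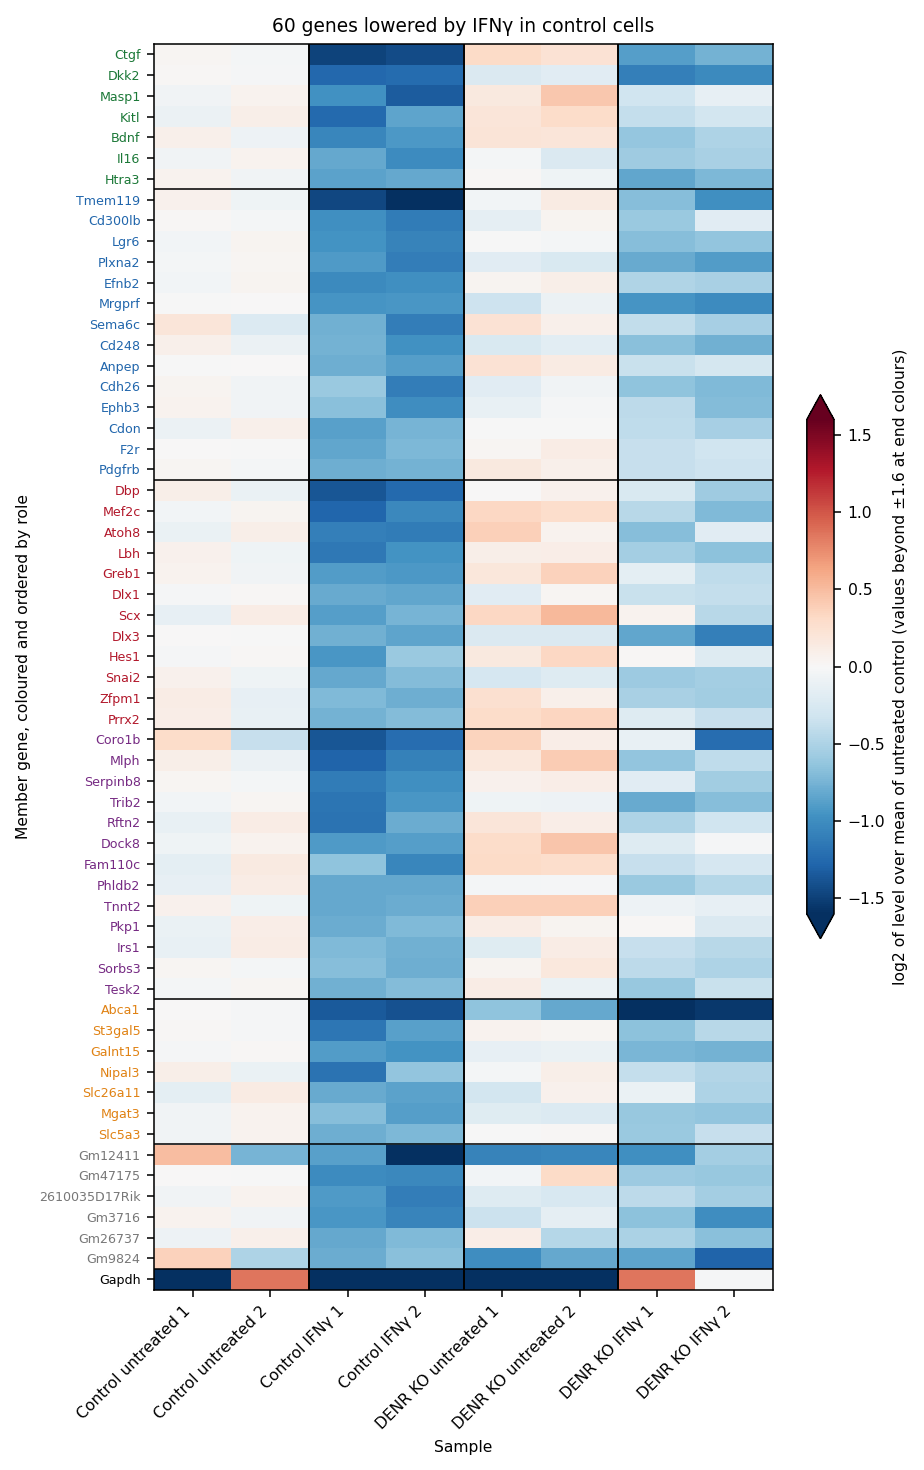
Each row is one of the 60 genes, grouped and coloured by role, and each column is one of the 8 samples. Colour gives the log2 of the normalised level over the mean of the 2 untreated control samples, in the range from -1.6 to 1.6. The control IFNγ columns are blue throughout because the rule chose the genes for this. The KO IFNγ columns are mostly a paler blue, both KO values being above both control values in 49 genes and below both in 2. Of measured genes, 19.8% and 23.6% were so placed. Nothing is read from these counts, because the rule chose genes that were low in these control samples.

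KO cells answer whether these genes also fall in samples that the rule did not use for the ratio, and most did. In KO cells with IFNγ against untreated KO cells, tested with limma on log2(normalised reads + 1) over 13980 genes, 33 of the 60 genes were called lower, at a Benjamini-Hochberg adjusted p under 0.05 and a log2 change below -0.5. Of all genes tested 0.901% were called lower by the same rule, 126 genes, and this count was 82 without the second KO IFNγ sample, 44 with DESeq2 and 237 on the deposited scale. The counts of the 60 under the last pair of settings were 26 and 44. By limma 0 of the 60 were called higher, against 4.01% of all genes, 2 were higher at an unadjusted p under 0.05, and edgeR called 0 and DESeq2 1 higher. At an adjusted p under 0.05 alone, 48 of the 60 genes were lower, against 4.26% of all genes. The median log2 change of the 60 was -0.55, with quartiles of -0.65 and -0.43, and that of all genes tested was -0.01. Both KO IFNγ values were below both untreated KO values in 56 of the 60 genes, against 26.6% of measured genes. The other 4 genes were Gapdh, Gm12411, Gm9824 and Slc26a11. Of the 33 called genes, 21 stayed called under each of the 12 alternatives run, and 12 lost the call under at least 1, among them Atoh8, Masp1, Scx, Sema6c, Cdh26, Rftn2 and Gm3716 with DESeq2.

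**Figure D2:**
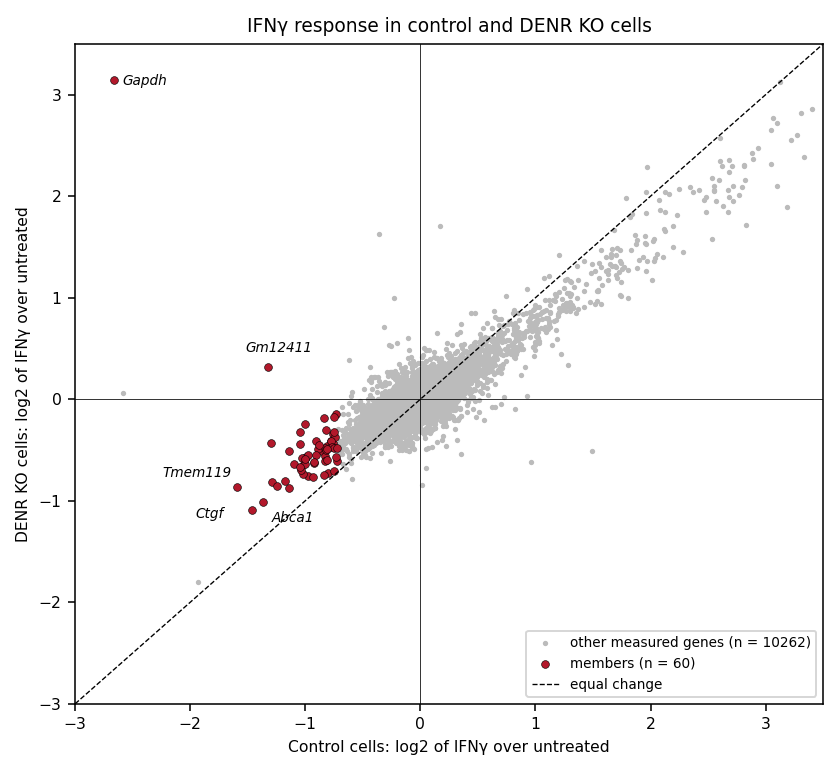
Log2 ratio of IFNγ over untreated in control cells (x axis) and in DENR KO cells (y axis) for all 10322 measured genes on the common scale. Grey points are other genes, red points are the 60 genes, the dashed line marks equal change, and 48 genes lie outside the plotted range. The red points lie left of -0.7 by the rule, and nearly all lie below 0 and above the dashed line, with Gapdh at the upper left. The choice of genes in the control samples favours points above the dashed line.

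The secreted proteins, 7 genes, were lower in KO cells with IFNγ in most cases, 6 of 7 being called, with a median log2 change of -0.74. Ctgf (chr10:24595442-24598683), a matricellular protein and common readout of YAP and TAZ activity, stood at 155 and 149 normalised reads in untreated control cells and at 53.7 and 55.9 with IFNγ. In KO cells it was at 189 and 179.7 untreated and at 82.5 and 89.8 with IFNγ. The groups with and without IFNγ did not overlap in either genotype, and the KO change was -1.09 ± 0.17 (limma log2 estimate ± SE, adjusted p = 9.06e-07), the lowest of the 60. Dkk2 (chr3:132085292-132180304), a secreted inhibitor of Wnt signalling, had the most reads of the 60, with no regard to transcript length. It was at 5625 and 5446 in untreated control cells, 2309.9 and 2364 in control cells with IFNγ, 4709 and 4901 in untreated KO cells, and 2587 and 2728 in KO cells with IFNγ. All 4 IFNγ samples were below all 4 untreated samples, and the KO change was -0.85 ± 0.06 (limma adjusted p = 7.86e-19).

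Bdnf, a neurotrophin, was at 905 and 809 in untreated control cells, 417 and 451 in control cells with IFNγ, 989.8 and 984 in untreated KO cells, and 559 and 609.7 in KO cells with IFNγ. Kitl, the ligand of the receptor KIT, was at 703 and 798, 316 and 419, 859 and 919.7, and 575 and 614 in the same order. In both genes, all 4 IFNγ samples were below all 4 untreated samples, and the KO log2 changes were -0.76 ± 0.08 and -0.58 ± 0.08, both called. Masp1, a serine protease of the lectin complement pathway, was at 233 and 253 in untreated control cells and at 123 and 96.2 with IFNγ, and at 271 and 327 in untreated KO cells and at 195 and 223 with IFNγ. Its KO change of -0.51 ± 0.13 was just past the threshold of -0.5, and without the first KO IFNγ sample it was -0.42 and not called (limma adjusted p = 0.108). Htra3, a secreted serine protease, was called at -0.74 ± 0.08, and Il16, a cytokine precursor, was lower by the adjusted p alone, at -0.41 ± 0.11.

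The receptors and surface proteins numbered 14, of which 9 were called lower in KO cells and 13 had an adjusted p under 0.05. Tmem119 (chr5:113793729-113800516), a membrane protein known from osteoblasts and microglia, had the lowest control ratio after Gapdh. It was at 299 and 273 in untreated control cells, 103 and 84.9 in control cells with IFNγ, 276 and 313 in untreated KO cells, and 178 and 145 in KO cells with IFNγ. The KO samples with IFNγ thus lay between the 2 control groups, a placing that the choice of genes in the control samples favours. The change of the KO samples with IFNγ against untreated KO cells was -0.87 ± 0.14 (limma adjusted p = 1.03e-06). Others called lower were Mrgprf, an orphan G protein-coupled receptor, at -0.76, Lgr6, a receptor for R-spondins, at -0.64, Plxna2 and Sema6c, a semaphorin receptor and a semaphorin, at -0.63 and -0.62, Efnb2, a ligand of Eph receptors, at -0.57, the cadherin Cdh26 at -0.56, Cd248, endosialin, at -0.51, and Anpep, aminopeptidase N, at -0.504. Without the first KO IFNγ sample Anpep and Cdh26 were not called, at -0.47 and -0.59, and without the second Cd248, Cdh26 and Sema6c were not, at -0.46, -0.53 and -0.55. Sema6c had few reads, at 156 and 117 in untreated control cells and 80.1 and 63.1 with IFNγ.

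The remaining 5 surface proteins were Ephb3, Pdgfrb, Cdon, F2r and Cd300lb, with KO log2 changes of -0.49, -0.47, -0.46, -0.41 and -0.34. The first 4, an Eph receptor, the beta receptor of PDGF, a hedgehog co-receptor and the thrombin receptor, had an adjusted p under 0.05 but a change smaller than the threshold. F2r, with more reads than most of the set, was at 1607 and 1586 in untreated control cells, 901 and 967 with IFNγ, 1627 and 1729 in untreated KO cells and 1233 and 1283 in KO cells with IFNγ. Cd300lb was at 135 and 154 in untreated KO cells and at 98.6 and 132 with IFNγ, and its change did not pass the test (limma adjusted p = 0.241).

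Transcription factors and cofactors numbered 12, of which 8 were called lower in KO cells and 10 had an adjusted p under 0.05, with a median log2 change of -0.61. Mef2c (chr13:83504034-83667080), a factor of muscle, neural and immune development, was at 257 and 273 in untreated control cells and at 109.5 and 129 with IFNγ. In KO cells it was at 332 and 322 untreated and at 195 and 162 with IFNγ, a change of -0.88 ± 0.13 (limma adjusted p = 2.06e-07). Atoh8, a basic helix-loop-helix factor and BMP target, was at 155 and 178, 77.9 and 76.6, 217 and 173, and 104 and 147 in the order control untreated, control IFNγ, KO untreated and KO IFNγ. It was called lower at -0.65 ± 0.17, but without the first KO IFNγ sample its change was -0.40 (limma adjusted p = 0.214).

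Of the 3 homeobox genes, which encode factors of limb, brain and craniofacial development, 2 were called lower in KO cells. Dlx3 was at 929.8 and 923 in untreated control cells and at 542 and 517 with IFNγ, and at 789.7 in both untreated KO samples and at 522 and 433 with IFNγ, a change of -0.73 ± 0.09 that was called. Dlx1 was at 387 and 396 in untreated control cells and at 224 and 219 with IFNγ, and at 347 and 399.6 in untreated KO cells and at 306 and 300.4 with IFNγ, a change of -0.30 ± 0.11 that was not called (limma adjusted p = 0.0696). The difference between the 2 genes was not tested. Prrx2, a paired-related factor of mesenchyme, was at 2233 and 1907, 1222 and 1283, 2533 and 2622, and 1790.4 and 1597 in the order used above, and was called at -0.61 ± 0.06.

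Dbp (chr7:45705088-45710203), a PAR bZIP factor driven by the circadian clock, was at 135 and 117 in untreated control cells and at 48.5 and 52.8 with IFNγ. In KO cells it was at 127 and 132 untreated and at 107 and 84.8 with IFNγ, a change of -0.44 ± 0.18 that did not pass the test (limma adjusted p = 0.117). Hes1, the repressor downstream of Notch, was at 272 and 281 in untreated control cells, 144 and 182 with IFNγ, 309 and 348 in untreated KO cells and 279.6 and 238 in KO cells with IFNγ. Its KO change of -0.34 ± 0.12 had an adjusted p of 0.0457 (limma) and was short of the threshold. The KO IFNγ samples of both genes lay above both control IFNγ samples. Lbh, Zfpm1, Scx and Greb1 were called lower at -0.70, -0.71, -0.62 and -0.55, the last pair not without the second KO IFNγ sample, at -0.37 and -0.43, and Snai2, a factor of epithelial to mesenchymal transition, changed by -0.33 ± 0.10 with an adjusted p of 0.024 (limma).

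**Figure D3:**
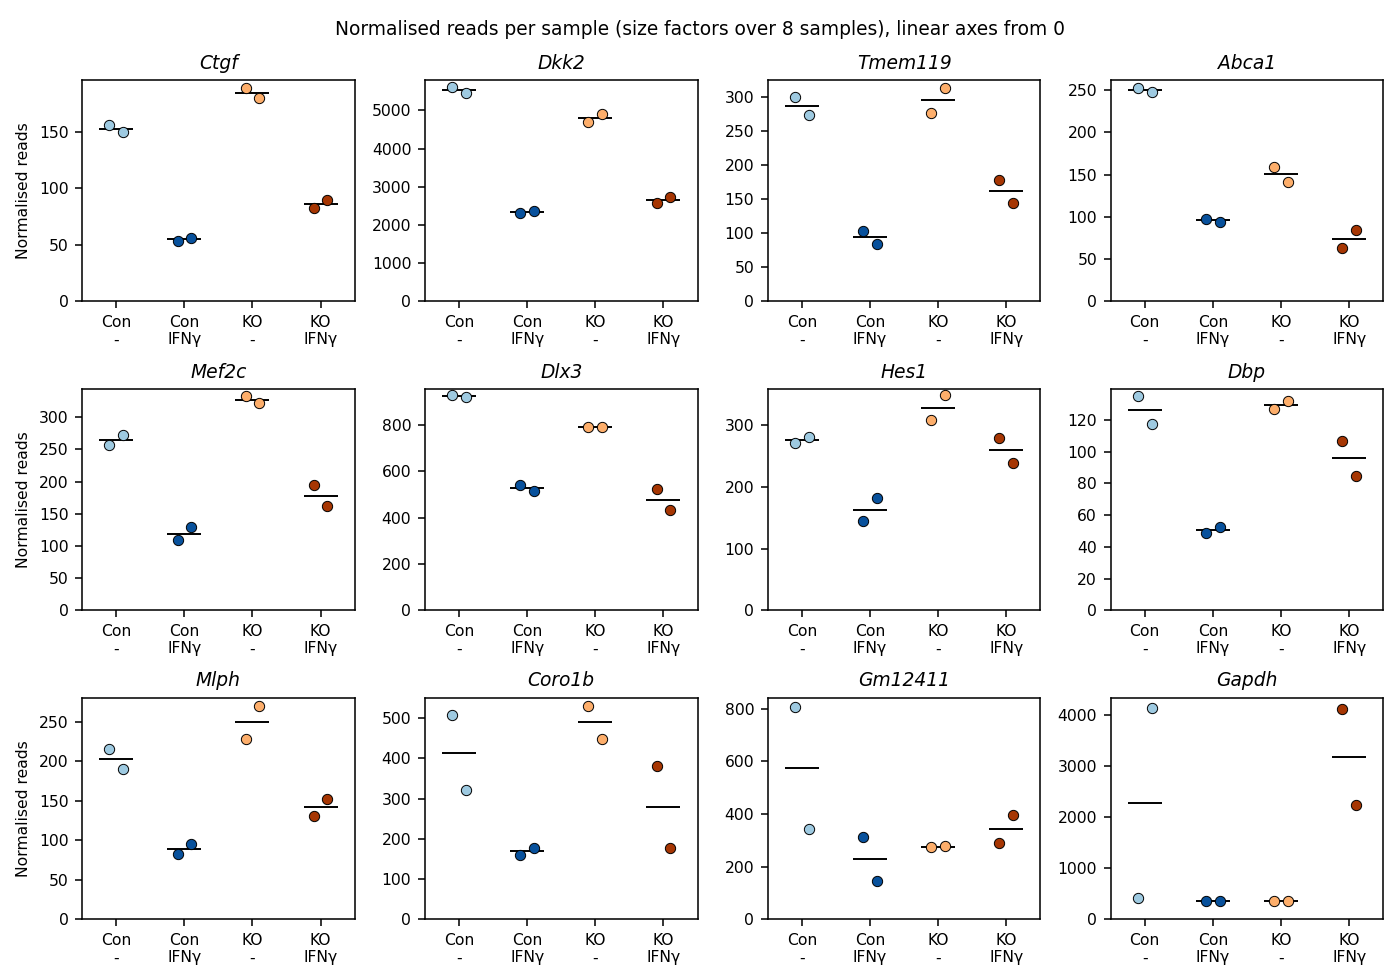
Normalised reads (y axis, linear from 0) of 12 of the genes in each sample, with control (Con) and DENR KO (KO) cells untreated (-) or with IFNγ along the x axis. Points are single samples and bars are the means of 2. Ctgf, Dkk2, Tmem119 and Abca1 show IFNγ samples below untreated samples in both genotypes, while in Gapdh 1 untreated control sample at 4144 stands apart from the other at 421.

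Among the 13 signaling, adaptor and cytoskeletal proteins, 5 were called lower in KO cells and 11 had an adjusted p under 0.05. Mlph, melanophilin, an adaptor of melanosome transport, was at 216 and 190.1 in untreated control cells, 83.2 and 95.2 with IFNγ, 228 and 271 in untreated KO cells and 131 and 153 in KO cells with IFNγ. Its KO change was -0.81 ± 0.14 (limma adjusted p = 1.7e-05). Trib2, a pseudokinase, Fam110c, Sorbs3, an adaptor also known as vinexin, and Rftn2, a raft protein, were called at -0.67, -0.61, -0.57 and -0.55, Rftn2 not without the first KO IFNγ sample, at -0.47. Coro1b, which regulates actin branching, was not called although its estimate was among the lowest. It was at 506 and 322 in untreated control cells, 159 and 178 with IFNγ, 531 and 447 in untreated KO cells, and 380.2 and 177 in KO cells with IFNγ. The 2 KO samples with IFNγ were far apart, and the KO change of -0.91 ± 0.54 had an adjusted p of 0.528 (limma).

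Phldb2, Tnnt2, Dock8, Tesk2, Serpinb8 and Irs1 of the same group had an adjusted p under 0.05 and KO log2 changes from -0.498 to -0.36, short of the threshold. Tnnt2, cardiac troponin T, was at 2186 and 1977 in untreated control cells, 1177 and 1200.5 with IFNγ, 2721 and 2710.3 in untreated KO cells and 1960.4 and 1908 in KO cells with IFNγ. Pkp1, the desmosomal protein plakophilin, lies 19.1 kb from Tnnt2 on chromosome 1. It was at 194 and 225 in untreated control cells, 120.1 and 128 with IFNγ, 228 and 215 in untreated KO cells, and 212 and 179 in KO cells with IFNγ, and its change of -0.18 ± 0.14 did not pass the test (limma adjusted p = 0.478).

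Transporters and glycosyltransferases numbered 7, of which 3 were called lower in KO cells and 5 had an adjusted p under 0.05. Abca1 (chr4:53030787-53159895), which exports cholesterol and phospholipid to apolipoprotein A-I, was at 252 and 248 in untreated control cells and at 98 and 94.2 with IFNγ. In KO cells it was at 159 and 141 untreated and at 63.4 and 84.8 with IFNγ, a change of -1.02 ± 0.19 (limma adjusted p = 2.79e-05). It was the 1 gene of the 60 called lower in untreated KO against untreated control cells, where 0.0857% of all genes were called lower. Nothing is read from this call, because the rule chose genes that were high in these untreated control samples. St3gal5, the sialyltransferase that makes ganglioside GM3, and Galnt15 were called at -0.59 and -0.63, St3gal5 not without the first KO IFNγ sample, at -0.49. Slc5a3 and Mgat3, a myo-inositol transporter and an N-acetylglucosaminyltransferase, changed by -0.48 and -0.41 with an adjusted p under 0.05, and Nipal3 by -0.45 (limma adjusted p = 0.0612). Slc26a11, an anion transporter, was at 122 and 149 in untreated control cells and at 76.9 and 74.5 with IFNγ, and at 111 and 142 in untreated KO cells and at 126 and 95.8 with IFNγ, so that the KO groups overlapped.

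Of the 6 noncoding loci and pseudogenes, Gm47175 and Gm3716 were called lower in KO cells, at -0.73 and -0.57, neither without the second untreated KO sample, at -0.55 and -0.48, and Gm26737, 2610035D17Rik, Gm9824 and Gm12411 were not. Gm12411 and Gm9824 are pseudogenes, and reads of near-identical copies could have been split between them and other loci, so their values are uncertain. Gm12411 was at 807 and 342 in untreated control cells, 314 and 144 with IFNγ, 273 and 277 in untreated KO cells and 289.7 and 395 in KO cells with IFNγ. Its untreated control samples lay further apart than the 2 control groups did, and its KO change was 0.30 ± 0.12 (limma adjusted p = 0.118). Gm9824 was at 1111 and 607 in untreated control cells and at 493 and 538 with IFNγ, and its control log2 ratio as deposited was -0.31 without the first untreated control sample.

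**Figure D4:**
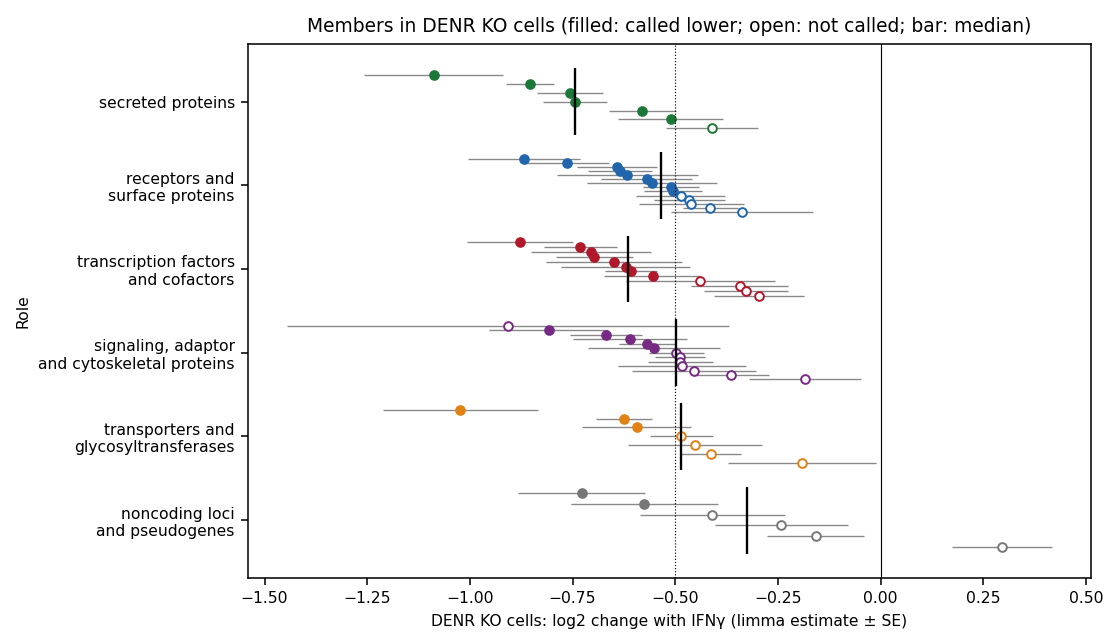
Log2 change with IFNγ in KO cells (x axis, limma estimate with its standard error as the bar) for 59 of the genes by role (y axis), Gapdh being left out for its scale. Filled points were called lower, open points were not, black bars are group medians and the dotted line is -0.5. The medians run from -0.74 for secreted proteins to -0.33 for noncoding loci and pseudogenes, and Gm12411 is the single point right of 0.

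Gapdh (chr6:125161715-125166467), the glycolytic enzyme often used as a reference, had the lowest control ratio of all and was set by a single library. It was at 421 and 4144 in untreated control cells, 357 and 361 in control cells with IFNγ, 355 and 364 in untreated KO cells, and 4118 and 2249 in KO cells with IFNγ. The 3 high samples were 1 of untreated control cells and both of KO cells with IFNγ. Without the second untreated control sample its control log2 ratio as deposited was -0.31, and the KO change of 3.08 ± 0.42 had an adjusted p of 0.0927 (limma with robust variances) and of 3.73e-12 with DESeq2. Gapdh also has many pseudogene copies, so its counts are uncertain. Without Gapdh and the 6 noncoding loci and pseudogenes, left out after their values were seen, 31 of the other genes were called lower in KO cells.

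Whichever control sample was left out, the log2 ratio as deposited stayed at -0.8 or below for 37 of the 60 and at -0.5 or below for 58, Gapdh and Gm9824 being the exceptions. Just inside the threshold of -0.8 were Sorbs3, Tesk2 and Prrx2, with deposited log2 ratios of -0.812, -0.807 and -0.803. Just outside were Nfatc4, Unc5b and Fam19a5, at -0.795, -0.794 and -0.787, with the same separation of samples.

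In 58 of the 60 genes KO cells showed a fall that was smaller than in control cells, and Gapdh and Gm12411 were higher with IFNγ in KO cells. The medians on the common scale were -0.91 in control and -0.55 in KO cells, and KO cells with IFNγ kept a median of 68.1% of their untreated level. The control samples chose the genes for a large fall, which biases this difference upward, and it was not tested. The same bias holds for the 305 raised genes, whose medians were 1.66 in control and 1.28 in KO cells. To lessen it, genes were chosen by the rule in 1 control replicate and measured in the other. The 85 genes chosen in replicate 1 had a median log2 ratio of -0.81 in replicate 2, 79 of them being lower there, and of -0.55 in KO cells. The 90 genes chosen in replicate 2 had medians of -0.77 in replicate 1 and -0.54 in KO cells. Chosen so, the median difference of the responses was 0.25 and 0.26, against 0.37 for the 60 genes, all on the deposited scale. Across the 60 genes the control and KO changes had a Spearman rho of 0.40, a description over genes that are not independent replicates, and Pearson's r was -0.56 with Gapdh and 0.40 over the other 59.

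With IFNγ, the 60 genes were a median of 0.44 log2 higher in KO than in control cells, and both control values were below both KO values in 49, against 19.8% of measured genes. By limma, 14 of the 60 were called higher in KO cells, where 0.518% of all genes were, and nothing is read from this count because the rule chose genes that were low in these control samples. None was called lower by limma, against 0.942% of all genes, and 1 was lower at an unadjusted p under 0.05. For the same reason nothing is read from these counts or from the 49 genes without overlap. Among the 60 genes, Masp1 was at 123 and 96.2 in control and 195 and 223 in KO cells, and Dock8, a guanine exchange factor, at 429 and 437 against 696 and 791. Without IFNγ the median difference was 0.03 log2. The rule chose genes that were high in the untreated control samples, which biases this difference downward, so it is a description. For genes chosen in 1 control replicate and measured against the other, the medians were 0.13 and 0.082 as deposited. In untreated samples both control values were below both KO values in 20 of the 60 genes and above both in 16, against 20.7% and 20.6% of measured genes. The same rule applied to the KO samples gave 14 genes, of which 11 were among the 60, which is 18.3% of the 60 and 78.6% of the KO list. The 11 were Ctgf, Abca1, Mef2c, Tmem119, Dkk2, Coro1b, Mlph, Mrgprf, Bdnf, Htra3 and Gm47175, and Tmem134, Klc4 and Zfp423 met every part of it in KO cells only. In control cells Tmem134 had a deposited log2 ratio of -2.01 but its groups overlapped, and Zfp423 and Klc4 had ratios of -0.67 and -0.06.

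The counts on the pathway lists are a description. In KO cells with IFNγ, 0.901% of all genes tested were called lower by limma and 4.01% higher. Of 35 measured genes of BMP and TGFβ signaling, Atoh8 was the 1 member of the set. In KO cells with IFNγ, Atoh8 and Id2, a helix-loop-helix inhibitor, were called lower, the latter at -0.51 ± 0.08, and Fst, follistatin, was called higher, and the median of the list was -0.08. Of 27 Wnt signaling genes, Dkk2 was the 1 in the set and the 1 called. Of 30 YAP and TAZ targets Ctgf alone was called lower, while Gadd45b and Ptgs2 were called higher, at 0.69 and 0.72, and the list median was -0.01. Others had an adjusted p under 0.05 (limma) but a change short of the threshold. Among these Cyr61 and Ankrd1 were higher, at 0.22 and 0.29, and Amot and Crim1 were lower, at -0.28 and -0.23. Of 21 Notch genes, with Hes1 in the set, none was called lower by limma, edgeR or DESeq2. Notch1 and Dtx4 were called higher at 0.70 and 0.66, and the list median was -0.03. At an unadjusted p under 0.05 by limma 4 were lower, a count given without a share of all genes and not interpreted.

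Of 41 genes on the homeobox and forkhead list, which does not hold Prrx2, Dlx1 and Dlx3 were in the set, and Dlx3 was the 1 called lower. Of 19 circadian clock genes Dbp was in the set, none was called lower by any of the 3 tools, and Arntl2 was called higher at 0.52. At an unadjusted p under 0.05 by limma 4 were lower, which likewise has no share of all genes beside it and is not interpreted. The lists of ERK targets and feedback (40 measured genes), p53 targets (29), Krüppel-like and SP factors (15), cell cycle (50), extracellular matrix (44), hypoxia targets (24) and nuclear receptors (26) held none of the 60 genes. Of these 226 genes, each counted once, none was called lower in KO cells by limma, edgeR or DESeq2, against 0.901% of all genes by limma. With a share that low, nothing is read from the absence of calls. At an unadjusted p under 0.05 by limma 53 were lower, a count given without a share of all genes and not interpreted. Of 40 ERK targets 5 were called higher, against 4.01% of all genes. The extracellular matrix list had medians of -0.23 in control and -0.12 in KO cells. The cell cycle list had a control median of -0.07, against -0.0004 for all measured genes. Of its 50 genes 41 had a control ratio below 0, a count given without the share of measured genes and not interpreted. Of 30 textbook IFNγ targets, 29 were called higher in KO cells.

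In features that the rule did not use, 54 of the 60 genes were protein coding. Their median summed exon length was 4.20 kb, against 4.48 kb for all measured genes and 3.78 kb for the raised genes, and their median span in the genome was 30.5, 23.6 and 18.1 kb in the same order. Of the 53 genes with a 3′ UTR of at least 100 bases, 73.6% held the AU-rich pentamer ATTTA, against 73.2% of all measured genes and 70.4% of the raised genes, so the shares were close. Among protein domains given in the deposited tables, the homeobox was found in 3 of the 60, Dlx1, Dlx3 and Prrx2, of 37 measured genes with that annotation and in none of the raised genes. The semaphorin domain was in Plxna2 and Sema6c, of 15 measured. Chromosome 1 held 8 of the 60 genes among 612 measured, chromosome 16 held 6 among 314, and chromosome X held none among 327. St3gal5 and Atoh8 lie 51.6 kb apart on chromosome 6.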

How the data were processed

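The authors deposited 2 tables, KO against control cells with IFNγ and without. As deposited by the authors, the values are a signal per gene, which the authors made by dividing reads by 1 size factor per sample within each table. The submitters' processing notes name HISAT2 2.0.5, StringTie 1.3.3b, featureCounts 1.5.0-p3, DESeq2 1.20.0 and build mm9, with no roles, but gene coordinates matched GRCm38 for 95.0% of 20050 shared IDs. Libraries were poly(A) selected. The authors also deposited log2 fold changes and p-values of their KO against control comparisons, which were not used.

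Whole reads were recovered (100% of values within 0.01 in all 8 columns) and divided by median-of-ratios size factors over 8 samples. The main test was limma 3.58.1 (R 4.3.3) with trend and robust options on log2(value + 1), on the 4 KO samples, for genes with a mean of at least 10. It was first tested on simulated data with known changes. edgeR 4.0.16 and DESeq2 1.42.0 served as alternatives on recovered reads. The named-gene rule took the 12 lowest control ratios, genes on the pathway lists, 3 genes either side of the threshold, and the 5 lowest and 5 highest KO changes, and other genes were named after their values were seen. The genes, pathway lists and roles were chosen with earlier results of these data known, the roles after values were seen.

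Sample numbers were not shown to pair the samples: across genes, deviations of same-numbered samples correlated at 0.01 between the KO groups, 0.25 between the control groups, 0.24 between the IFNγ groups, and -0.01 to 0.12 in the other 3 pairs of groups.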

Additional observations from a re-analysis of the deposited data

Results flagged for a closer look

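In Gapdh and Gm12411 every control sample with IFNγ was below every untreated control sample. In both genes every KO sample with IFNγ was above every untreated KO sample on the common scale. As deposited, the KO groups of Gm12411 overlapped, at 282 and 285 untreated and at 283 and 387 with IFNγ. On the common scale the KO log2 ratio was 3.14 for Gapdh, against -2.66 in control cells, and 0.31 for Gm12411, against -1.32. The difference between the genotypes was not tested in either gene. In Gapdh the samples of the untreated control group were at 421 and 4144 normalised reads, and in Gm12411 at 807 and 342.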

How the results depend on the processing

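The rule gave 46 to 62 genes with a pseudocount of 10, common size factors or overlap allowed, 280 with a mean of at least 10, 28 with a threshold of -1, and 63 to 88 with 1 control sample left out, of which 47 to 53 were among the 60. In KO cells 26 to 48 of the 60 were called lower under the alternatives run, 29 to 33 with 1 KO sample left out. Of the 33 called, 6 lost the call without KO IFNγ sample 1, 6 without KO IFNγ sample 2, 4 without KO untreated sample 1, 8 without KO untreated sample 2 and 7 with DESeq2. The median KO log2 change of all 60 genes was -0.63 on the deposited scale, where 237 of all genes were called lower. Of all genes DESeq2 called 44 lower, and 596 were lower at an adjusted p alone. With 1 KO sample left out the median of the 60 was -0.56 to -0.52 and the count of all genes 82 to 126. With the replicate block 33 of the 60 and 118 of all genes were called lower, with a median of -0.55, and the block changed no call among the 60. Replicate numbers were not shown to pair samples. Leaving out 1 sample moved the median KO minus control log2 difference with IFNγ between 0.41 and 0.44 and the untreated one between 0.013 and 0.059. With genes chosen in control 1 and measured against control 2, or the reverse, these were 0.33 and 0.29 with IFNγ, 0.13 and 0.082 untreated, and 0.25 and 0.26 for the difference of the responses. The counts under the rule follow from the thresholds themselves, and for the other settings the cause was not tested.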
